A study of Mus musculus with 12 samples.

Results

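The TNF superfamily ligands described here are 10 genes, chosen by name from the deposited gene tables: Tnf, Lta, Ltb, Fasl, Tnfsf4, Tnfsf8, Tnfsf9, Tnfsf10, Tnfsf13b and Tnfsf15. They are 10 of the 25619 genes listed in all 3 tables. TNF superfamily ligands are trimeric proteins, most of them made as membrane proteins of immune cells. They bind receptors on neighbouring cells, and some of these receptors are shared between ligands. Receptors with a death domain can start caspase-driven cell death. Many receptors of the family recruit TRAF adaptors and switch on NF-kappaB, a transcription factor that drives inflammatory and survival genes. In tumours the family is known for killing of cancer cells by cytotoxic lymphocytes, for costimulation of T cells and for the growth of lymphoid tissue.

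Total RNA of 12 mouse pancreatic ductal adenocarcinoma (PDAC) tumours, grown under the skin, was sequenced in bulk in 4 groups of 3 libraries. The groups were untreated tumours, tumours given an antibody that blocks IL-1R1 (the signalling receptor for interleukin-1), tumours given an agonistic antibody against CD40 (itself a TNF receptor superfamily member, found on antigen-presenting cells), and tumours given both, called the combination. The antibodies were injected intraperitoneally 2 times a week, and the labels name no control antibody for the untreated tumours. The sources used here do not give mouse strain, age, tumour cell line or number of doses. Whether the 3 tumours of a group grew in different mice is likewise not stated, so each p-value refers to the spread among these libraries, part of which may be technical.

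Libraries held 27.8 to 53.3 M reads in genes. Levels are given in CPM (read counts scaled to the TMM-adjusted library total), with libraries in the order 1, 2 and 3 of each group and with mean ± SD over n = 3. Transcripts that define epithelial tumour cells were abundant, with Krt8, Krt18, Krt19, Cdh1 and Epcam together at 2010 to 4510 CPM, although Epcam alone reached at most 17.5 CPM and was at 0.102, 0.0 and 0.128 CPM in the combination. Skeletal muscle transcripts set apart 2 libraries, CD40 agonist 2 with 1460 CPM and combination 1 with 2930 CPM over 5 markers, against 1.43 to 40.4 CPM elsewhere. In CD40 agonist 3 a low level of T cell markers was measured, 6.56 CPM summed over 9 genes against 31.9 and 31.1 CPM in CD40 agonist 1 and 2.

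Tnf was the only ligand gene that passed the edgeR test, and it no longer passed when certain single libraries were left out. Its group mean was lowest in tumours given anti-IL-1R1 alone, at or below 0.564 CPM in each library. The highest mean was in the combination, at 5.07 to 14.1 CPM. CD40 agonist 3 was as low as the anti-IL-1R1 libraries, at 0.517 CPM. Ltb and Tnfsf10 had similar profiles over the libraries. Tnfsf9, the most abundant ligand transcript of the 10 per unit of gene length, lay between 18.2 and 22.4 CPM in all untreated, anti-IL-1R1 and CD40 agonist libraries. None of the other 9 members passed the edgeR test in any of the 7 comparisons made.

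**Figure D1:**
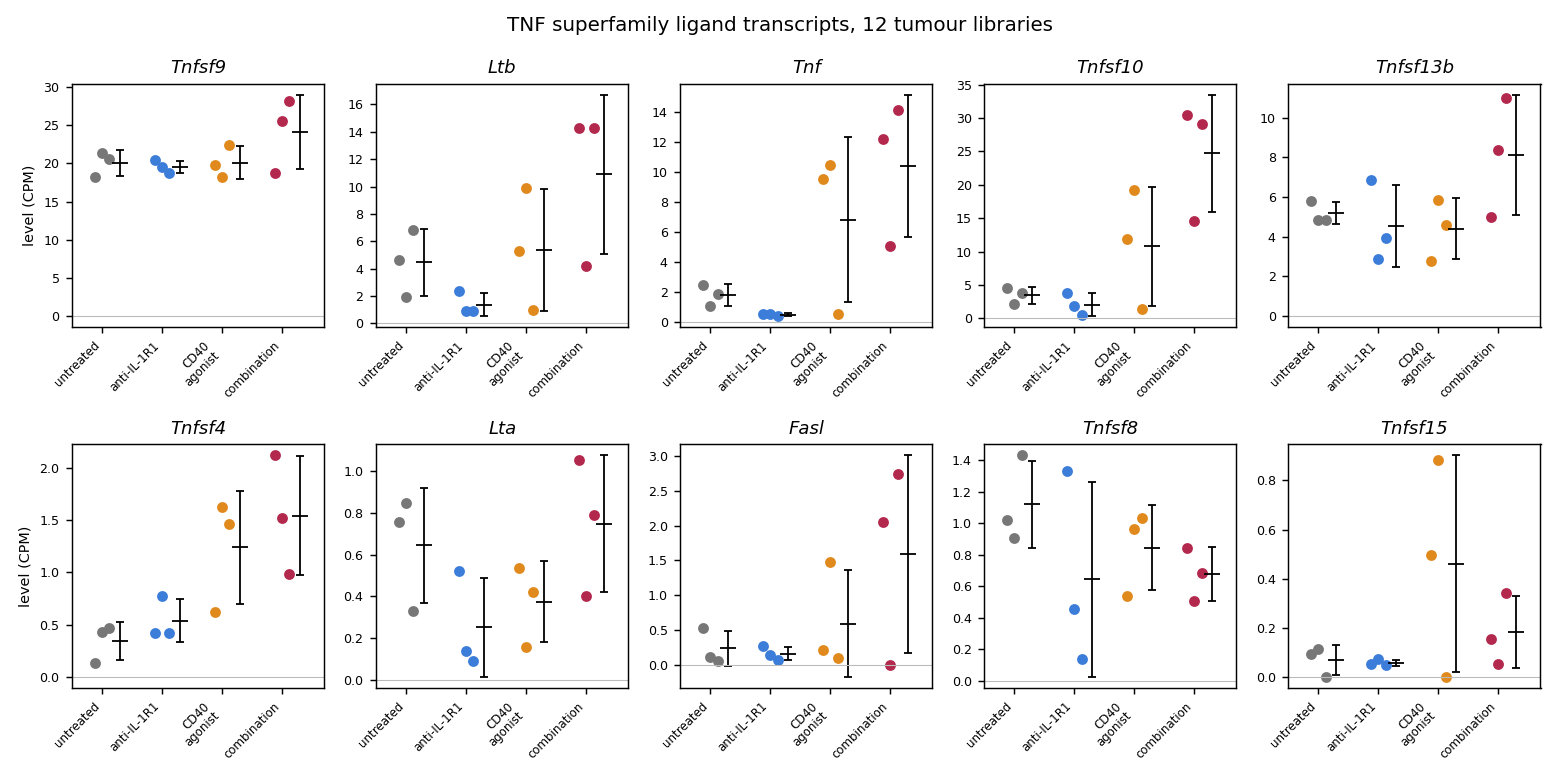
Levels in CPM of the 10 ligand genes (y axis, linear, its own range in each panel) in the 12 libraries, coloured by group, with the bar and whiskers giving mean ± SD of 3 libraries. Tnf lies between 0.419 and 0.564 CPM in the anti-IL-1R1 libraries and between 5.07 and 14.1 CPM in the combination, while Tnfsf9 stays between 18.2 and 28.2 CPM in all 12.

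Ltb, Tnf and Lta lie side by side on chromosome 17 within 10913 bases of the mouse genome (mm39). Ltb (ENSMUSG00000024399, 35413415 to 35415296, plus strand) is separated by 3060 bases from Tnf (ENSMUSG00000024401, 35418357 to 35420983, minus strand), and 1157 bases separate Tnf from Lta (ENSMUSG00000024402, 35422141 to 35424327, minus strand). All 3 are protein-coding. Tnf encodes tumour necrosis factor, which binds the receptors Tnfrsf1a and Tnfrsf1b. Lta encodes lymphotoxin alpha, which binds the same receptors as a homotrimer, and Ltb encodes lymphotoxin beta, which joins lymphotoxin alpha in a membrane complex that binds Ltbr.

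The 250 bases before the start of transcription are shown for the 3 neighbours, and for Tnfsf10, because Tnf, Ltb and Tnfsf10 had similar profiles over the libraries and Lta did not. The sequences come from RefSeq (build GRCm38.p6, which differs from the mm39 build of the deposited tables), where 8 of the 10 members were matched by symbol, with 9 windows. Each runs 5′ to 3′ on the strand of its gene. Capitals mark matches to any of 5 motifs searched on both strands.

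Ltb, chr17:35194257-35194506, plus strand: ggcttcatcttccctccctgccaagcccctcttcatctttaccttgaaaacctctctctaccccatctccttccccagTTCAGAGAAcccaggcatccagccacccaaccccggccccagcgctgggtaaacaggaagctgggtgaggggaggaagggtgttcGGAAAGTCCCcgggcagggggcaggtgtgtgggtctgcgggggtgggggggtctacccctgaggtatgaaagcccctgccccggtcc
Tnf, chr17:35202008-35202257, minus strand: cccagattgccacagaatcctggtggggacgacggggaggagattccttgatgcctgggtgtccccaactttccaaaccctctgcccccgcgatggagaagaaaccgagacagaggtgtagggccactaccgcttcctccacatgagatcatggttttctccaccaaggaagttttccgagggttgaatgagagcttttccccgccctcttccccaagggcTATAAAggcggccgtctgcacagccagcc
Lta, chr17:35205352-35205601, minus strand: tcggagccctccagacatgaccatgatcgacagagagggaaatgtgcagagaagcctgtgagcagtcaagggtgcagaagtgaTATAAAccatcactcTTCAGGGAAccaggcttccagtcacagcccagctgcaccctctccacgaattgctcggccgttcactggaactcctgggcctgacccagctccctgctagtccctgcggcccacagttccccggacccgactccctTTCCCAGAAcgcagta
Tnfsf10, chr3:27316827-27317076, plus strand: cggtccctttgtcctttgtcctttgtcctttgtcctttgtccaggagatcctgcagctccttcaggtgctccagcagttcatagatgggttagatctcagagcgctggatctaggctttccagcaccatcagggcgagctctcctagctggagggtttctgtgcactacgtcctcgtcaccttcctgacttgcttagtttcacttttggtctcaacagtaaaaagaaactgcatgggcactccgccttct

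The motifs were the kappaB site of NF-kappaB (GGGA and CC with any 4 bases between them, found in 17.6% of the 32851 mouse windows of this length), an interferon response element (GAAA, any 2 bases and GAAA again, 2.98%), the GAS element of interferon-responsive promoters (TTCNNNGAA, 7.02%), the AP-1 site (TGANTCA, 6.75%) and the TATA box (TATAAA, 12.4%). In the Ltb window a kappaB match on the opposite strand lay 87 to 78 bases before the start, and a GAS match 172 to 164 bases before it. The Tnf window held the TATA box alone, 29 to 24 bases before the start. In the Lta window 2 GAS matches lay 152 to 144 and 16 to 8 bases before the start, and TATAAA occurred 167 to 162 bases before it. None of the 5 motifs occurred in the Tnfsf10 window, nor in those of Fasl, Tnfsf8 and Tnfsf15, and for Tnfsf13b an interferon response element match and an AP-1 match occurred in the second of its 2 windows. A match in letters is a description of the sequence only.

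The level of Tnf was 2.47, 1.05 and 1.87 CPM in the untreated group, and 0.549, 0.564 and 0.419 CPM after anti-IL-1R1. After CD40 agonist it was 9.52, 10.5 and 0.517 CPM, and under the combination 12.2, 5.07 and 14.1 CPM. All 3 anti-IL-1R1 libraries lay below all untreated libraries, all combination libraries lay above all untreated and all anti-IL-1R1 libraries, and the CD40 agonist group was split, with CD40 agonist 3 at the level of the anti-IL-1R1 tumours. In bulk tissue a change in the number of cells of a type and a change in RNA per cell cannot be told apart.

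Tnf was higher in the combination than with anti-IL-1R1 alone (10.4 ± 4.75 against 0.511 ± 0.0795 CPM, n = 3 each), a log2 fold change of 4.35 (SE 0.881, a 20.4-fold difference) with an adjusted p of 0.031 in edgeR's quasi-likelihood test. It was the 1 member of 10 called in that comparison, in which 2.44% of the 19436 genes tested were called, 1.89% as higher. Tnf was also called across the 6 libraries with CD40 agonist, alone or in the combination, against the 6 without it. The 6 libraries with the agonist ran from 0.517 to 14.1 CPM with a median of 9.99 CPM, and the 6 without it from 0.419 to 2.47 CPM with a median of 0.805 CPM. The log2 difference was 3.14 (SE 0.586, adjusted p 0.03), it was again the 1 member called, and 2.19% of all genes tested passed, 1.8% as higher. Of the 6 libraries with the agonist, 5 lay above all 6 without.

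Both calls depended on single libraries, and the fits that lost them also called fewer of all genes tested. Leaving out anti-IL-1R1 1, 2, 3 and combination 3 in turn, the first comparison held 15, 0, 0 and 3 called genes, against 474 with all libraries. The fits that lost the second call held 0 to 95 called genes, against 426. The call against anti-IL-1R1 was lost without anti-IL-1R1 1, 2 or 3 (adjusted p 0.106, 0.122 and 0.152) or combination 3 (0.0905), with log2 differences of 4.08 to 4.41. The call across 6 against 6 was lost without any untreated library (0.0746, 0.106 and 0.0815), any anti-IL-1R1 library (0.0749, 0.0781 and 0.0993), CD40 agonist 1 or 2 (0.069 and 0.061), combination 3 (0.0591) or both muscle-rich libraries (0.0686), with log2 differences of 2.85 to 3.27.

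**Figure D2:**
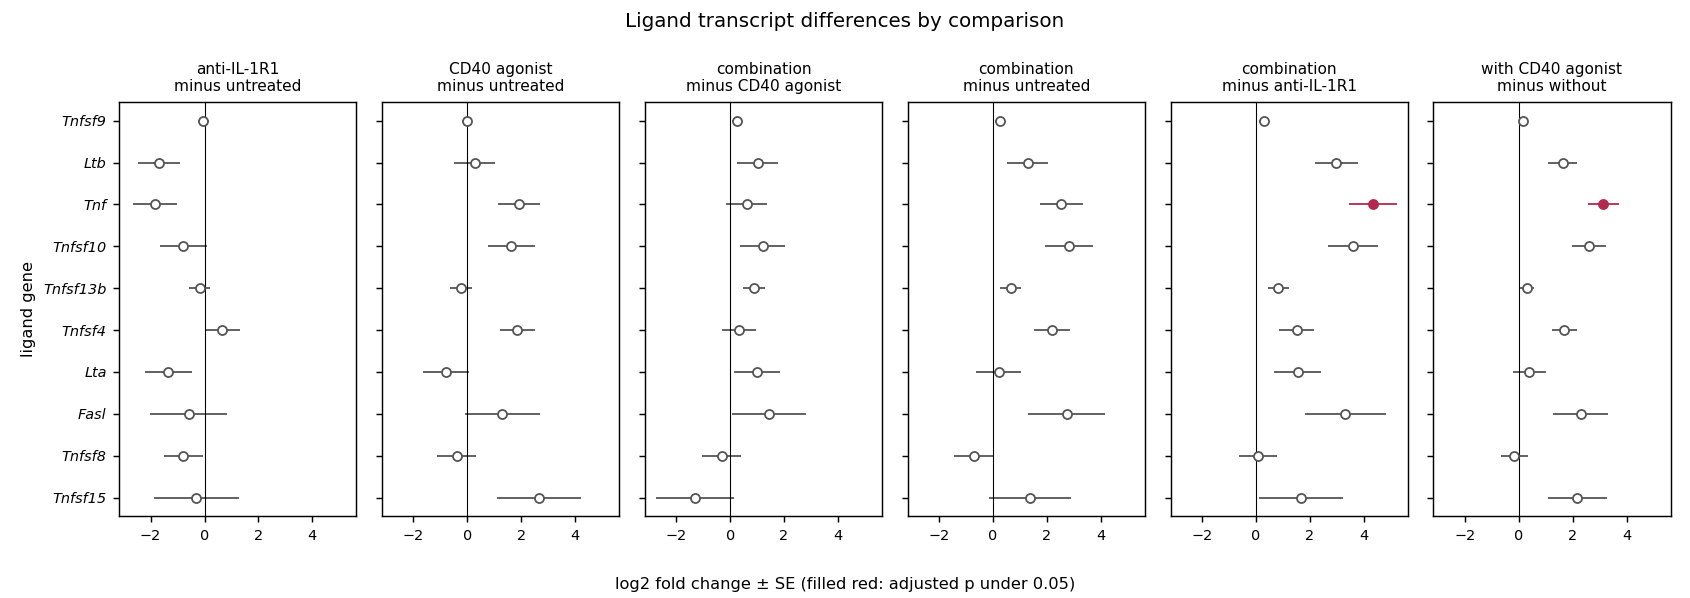
Log2 fold changes of the 10 ligand genes (points, whiskers ± SE, edgeR) in 6 comparisons, one panel each, with filled red points for an adjusted p under 0.05. Only the 2 Tnf points at 4.35 and 3.14 are filled, and most members lie to the right of 0 in the panels that compare tumours with and without CD40 agonist.

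In the other comparisons Tnf did not pass edgeR's test over all genes. The combination exceeded untreated tumours by a log2 difference of 2.53 (SE 0.797, adjusted p 0.163, against 0.0101 in DESeq2), and CD40 agonist alone by 1.92 (SE 0.782, p 0.0302 before and 1.0 after adjustment). Tumours given anti-IL-1R1 had a log2 difference of -1.82 to untreated tumours (SE 0.817, p 0.0462 before and 1.0 after adjustment). The fitted log2 difference of Tnf with anti-IL-1R1 was -1.82 without CD40 agonist and 0.61 with it (SE 0.751, p 0.431 before and 0.916 after adjustment). The value of 0.61 was smaller than its standard error, and it fell to 0.0679 without CD40 agonist 3. The interaction was 2.43 (SE 1.11, p 0.0488 before and 1.0 after adjustment). In the authors' deposited table for anti-IL-1R1 against untreated tumours, Tnf had a log2 fold change of -1.83 (adjusted p 0.255) and Ltb one of -1.70 (adjusted p 0.223).

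Ltb was at 4.64, 1.95 and 6.82 CPM in the untreated group, 2.33, 0.881 and 0.908 CPM with anti-IL-1R1, 5.28, 9.9 and 0.964 CPM under the CD40 agonist and 14.3, 4.21 and 14.3 CPM in the combination. The combination libraries lay above all 3 anti-IL-1R1 libraries and overlapped the untreated ones, and CD40 agonist 3 was again as low as the anti-IL-1R1 tumours. The log2 difference between combination and anti-IL-1R1 was 2.99 (SE 0.812, adjusted p 0.084) and that across 6 against 6 libraries 1.63 (SE 0.546, adjusted p 0.179). The first passed without combination 2 (adjusted p 0.0482), with these 2 groups only (0.0433) and in DESeq2 (0.000609), and the second without CD40 agonist 3 (0.0304) and in DESeq2 (0.0183). Relative to untreated tumours, anti-IL-1R1 gave a log2 difference of -1.7 (SE 0.781, p 0.0509 before adjustment), and the interaction was 2.72 (SE 1.08, p 0.0278 before and 1.0 after adjustment).

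Lta, the neighbour of Tnf on the other side, was scarce and followed neither of them closely. Its levels were 0.755, 0.848 and 0.33 CPM in the untreated group, 0.523, 0.141 and 0.0932 CPM with anti-IL-1R1, 0.538, 0.16 and 0.423 CPM under the CD40 agonist and 1.05, 0.4 and 0.791 CPM in the combination, from 253 reads in all 12 libraries. Groups overlapped in every comparison. The log2 difference between combination and anti-IL-1R1 was 1.55 (SE 0.876, adjusted p 0.464), and that across 6 against 6 libraries 0.39 (SE 0.605, adjusted p 0.859).

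Over the 12 libraries, Pearson's r of log2 CPM was 0.92 between Tnf and Ltb, 0.94 between Tnf and Tnfsf10, and 0.91 between Ltb and Tnfsf10. With each group's mean taken off the values, r was 0.88, 0.84 and 0.87, so these 3 genes also varied together inside the groups, where CD40 agonist 3 and combination 2 were low for all of them. For Tnf and Lta, r was 0.41 over all libraries and -0.04 inside the groups, and for Ltb and Lta 0.49 and 0.05. Lta had as few as 4 reads in a library, and the part of counting error in its r was not tested. These values describe 12 libraries that share their treatment groups and their cell make-up.

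**Figure D3:**
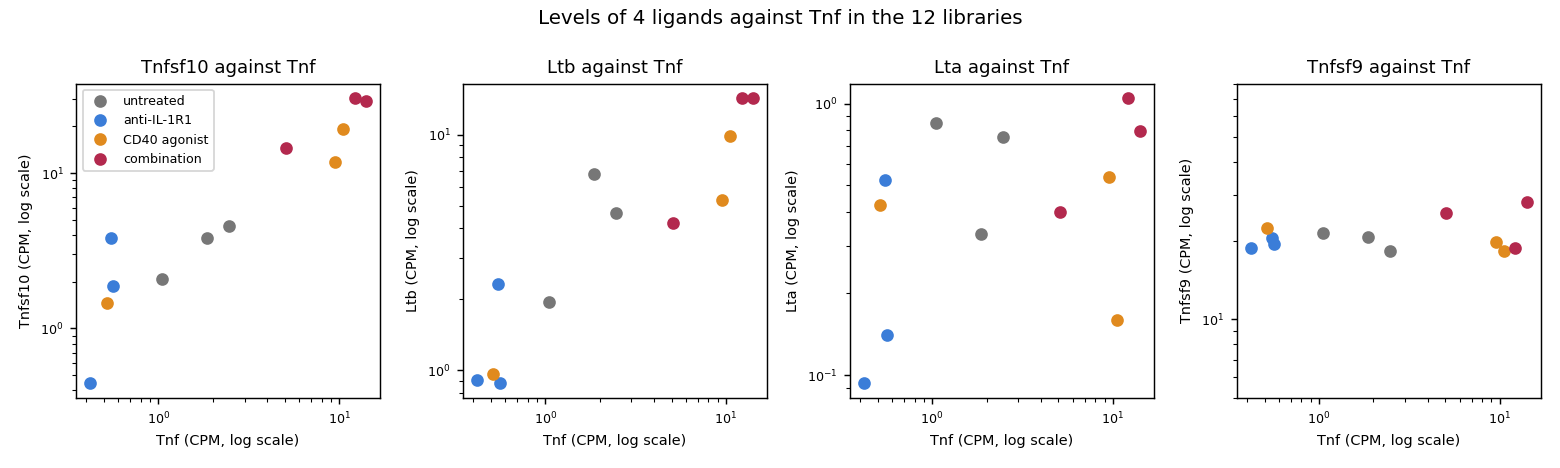
Levels of Tnfsf10, Ltb, Lta and Tnfsf9 (y axis, CPM, log scale) against Tnf (x axis, CPM, log scale) in the 12 libraries, coloured by group. Tnfsf10 and Ltb climb with Tnf (r = 0.94 and 0.92), Lta, with 253 reads in all, scatters (r = 0.41) and Tnfsf9 stays level (r = 0.2).

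Tnfsf10 and Fasl encode ligands that can kill cells through death receptors, Tnfrsf10b for Tnfsf10 and Fas for Fasl. Tnfsf10 (ENSMUSG00000039304, chromosome 3, 27371177 to 27396576, plus strand, mm39) was at 4.57, 2.09 and 3.8 CPM in the untreated group, 3.82, 1.87 and 0.443 CPM with anti-IL-1R1, 11.8, 19.2 and 1.46 CPM under the CD40 agonist and 30.5, 14.6 and 29.1 CPM in the combination. All 3 combination libraries lay above all untreated and all anti-IL-1R1 libraries. CD40 agonist 3 lay below the untreated range, and CD40 agonist 1 and 2 above it.

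In Tnfsf10 the log2 difference was 3.6 between combination and anti-IL-1R1 (SE 0.934, adjusted p 0.0811), 2.82 between combination and untreated tumours (SE 0.898, adjusted p 0.177) and 2.61 across 6 against 6 libraries (SE 0.633, adjusted p 0.068). The second of these passed with its 2 groups only (adjusted p 0.0338), and the last without CD40 agonist 3 (0.005). DESeq2, run on the same genes, gave adjusted p of 0.00219, 0.0344 and 0.00167 for the 3 comparisons, and it called 1297, 1031 and 1110 genes in them against 474, 12 and 426 in edgeR.

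Fasl (ENSMUSG00000000817, chromosome 1, 161608258 to 161616064, minus strand) is the ligand with which activated T cells and natural killer (NK) cells engage Fas. It was at 0.528, 0.113 and 0.055 CPM in the untreated group, 0.261, 0.141 and 0.0699 CPM with anti-IL-1R1, 0.207, 1.47 and 0.0941 CPM under the CD40 agonist and 2.05, 0.0 and 2.74 CPM in the combination. Combination 1 and 3 were the highest of the 12 libraries, while combination 2 had 0 reads, which allows a level of up to 0.0783 CPM (3 reads, counting error only). The log2 difference was 3.32 between combination and anti-IL-1R1 (SE 1.5, adjusted p 0.327) and 2.31 across 6 against 6 libraries (SE 1.02, adjusted p 0.322). The spread inside the combination group was as wide as these differences.

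Tnfsf4, Tnfsf8, Tnfsf9 and Tnfsf15 encode costimulatory ligands, which support T cells that have met antigen, through Tnfrsf4, Tnfrsf8, Tnfrsf9 and Tnfrsf25. Tnfsf4 (ENSMUSG00000026700, chromosome 1, 161222980 to 161245981, plus strand) was at 0.132, 0.424 and 0.468 CPM in the untreated group, 0.418, 0.775 and 0.419 CPM with anti-IL-1R1, 0.621, 1.63 and 1.46 CPM under the CD40 agonist and 2.12, 1.52 and 0.984 CPM in the combination. Every CD40 agonist library and every combination library lay above every untreated library. Here CD40 agonist 3 was among the high libraries, unlike for Tnf, Ltb and Tnfsf10, and r between Tnfsf4 and Tnf was 0.43 over all libraries and -0.3 inside the groups.

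The log2 difference of Tnfsf4 was 1.69 across 6 against 6 libraries (SE 0.465, adjusted p 0.0809), 2.18 between combination and untreated tumours (SE 0.668, adjusted p 0.141) and 1.86 between CD40 agonist and untreated tumours (SE 0.663, p 0.0142 before and 1.0 after adjustment). DESeq2 called Tnfsf4 in the first and second of these comparisons (adjusted p 0.00907 and 0.0259). Differences with anti-IL-1R1 were about the size of their standard errors or smaller, with log2 values of 0.66 (SE 0.658) without and 0.32 (SE 0.63) with CD40 agonist, and an interaction of -0.34 (SE 0.903).

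Tnfsf9 (ENSMUSG00000035678, chromosome 17, 57412325 to 57414757, plus strand) was the steadiest member. It was at 18.2, 21.4 and 20.6 CPM in the untreated group, 20.4, 19.5 and 18.8 CPM with anti-IL-1R1, 19.8, 18.2 and 22.4 CPM under the CD40 agonist and 18.7, 25.5 and 28.2 CPM in the combination. The 2 highest values, in combination 2 and 3, lay above all other libraries, but combination 1 lay within the untreated range. The log2 difference was 0.3 between combination and anti-IL-1R1 (SE 0.189, adjusted p 0.516) and 0.0 between CD40 agonist and untreated tumours (SE 0.189).

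Tnfsf8 (ENSMUSG00000028362, chromosome 4, 63749545 to 63779584, minus strand) had levels of 1.02, 0.904 and 1.43 CPM in the untreated group, 1.33, 0.458 and 0.14 CPM with anti-IL-1R1, 0.538, 0.963 and 1.03 CPM under the CD40 agonist and 0.844, 0.507 and 0.684 CPM in the combination. It was the 1 member whose combination libraries all lay below the untreated libraries, with a log2 difference of -0.72 (SE 0.719, adjusted p 0.662). Tnfsf15 (ENSMUSG00000050395, chromosome 4, 63642840 to 63663350, minus strand) was near the limit of detection, with 96 reads in all. Its highest levels were 0.497 and 0.883 CPM in CD40 agonist 1 and 2, and it had 0 reads in CD40 agonist 3 and untreated 3, which allows up to 0.0684 and 0.0799 CPM. In the other 8 libraries it lay between 0.0466 and 0.342 CPM, and the adjusted p across 6 against 6 libraries was 0.406, the lowest of its comparisons.

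Tnfsf13b (ENSMUSG00000031497, chromosome 8, 10056467 to 10089072, plus strand) encodes a survival factor of B cells that is made largely by myeloid cells. Its levels were 5.81, 4.86 and 4.84 CPM in the untreated group, 6.85, 2.85 and 3.94 CPM with anti-IL-1R1, 2.77, 5.86 and 4.56 CPM under the CD40 agonist and 4.99, 8.35 and 11.0 CPM in the combination. Combination 2 and 3 were the highest libraries, and combination 1 lay within the untreated range, the same order as for Tnfsf9. The log2 difference between combination and CD40 agonist was 0.89 (SE 0.396, p 0.0424 before and 0.742 after adjustment), the lowest p of any member in that comparison.

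Counted over the 10 members, all of which passed the filter on low counts, the direction varied with the comparison. Fold changes above 0 were found in 1 of 10 members for anti-IL-1R1 against untreated tumours (median log2 -0.68), in 7 for CD40 agonist against untreated (0.78), in 8 for the combination against CD40 agonist (0.75), in 9 for the combination against untreated (1.33), in 10 for the combination against anti-IL-1R1 (1.61) and in 9 across 6 against 6 libraries (1.66). Of all genes tested, 49.9%, 51.7%, 50.3%, 50.2%, 48.1% and 48.6% had fold changes above 0 in these 6 comparisons, in the same order, and the median log2 fold change ran from -0.02 to 0.01. The interaction was above 0 for 8 members (median log2 1.52) and for 47.3% of all genes. The comparisons share libraries, so their counts are not independent of each other. The members were also chosen with earlier results of these data known, so the counts are no independent evidence of a direction.

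No member was called for anti-IL-1R1 or CD40 agonist against untreated tumours, for the combination against CD40 agonist or against untreated tumours, or for the interaction. Of all genes, 0.0%, 0.0%, 0.00515%, 0.0617% and 0.0% were called in these 5 comparisons by edgeR, and for the combination against untreated tumours 0.0206% were called higher and 0.0412% lower. At an unadjusted p under 0.05 they held 1, 2, 1, 3 and 2 members of 10, against 1.56%, 2.41%, 6.64%, 15.5% and 4.37% of all genes. DESeq2 called 0, 0, 0, 3 and 0 members in the same order, among 0, 8, 101, 1031 and 21 genes in all. For untreated and anti-IL-1R1 libraries of the same number, r of their deviations from group means was 0.23, 0.19 and 0.22. A fit of those 2 groups with the replicate number as a block, chosen after seeing the data, called 27 genes and none of the members. Its adjusted p was 0.339 for Tnf and 0.153 for Ltb.

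Libraries of the groups compared did not overlap for Tnf, which was lower with anti-IL-1R1 than untreated (4.99% of all genes were lower without overlap), and for Tnfsf4, which was higher with CD40 agonist than untreated (5.14% of all genes higher). In the combination 3 members, Tnf, Tnfsf10 and Tnfsf4, were above the untreated range and 1, Tnfsf8, was below it (10.7% and 11.7% of all genes). Against anti-IL-1R1, 4 members were above (Ltb, Tnf, Tnfsf10 and Tnfsf4, with 8.8% of all genes higher and 8.29% lower). Against CD40 agonist none was (3.54% of all genes higher, 5.02% lower), and across 6 against 6 libraries none was either (0.391% higher, 0.396% lower).

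Between genes, levels were compared per length, as CPM per kb of the gene length given in the deposited tables. Averaged over the 12 libraries, Tnfsf9 came first with 16.3 CPM per kb, followed by Ltb with 3.65, Tnf with 2.99, Tnfsf10 with 1.95, Tnfsf13b with 0.81, Tnfsf4 with 0.496, Lta with 0.365, Fasl with 0.332, Tnfsf8 with 0.216 and Tnfsf15 with 0.033. The order below Tnfsf9 differed by group. Mean Tnf, at 0.312 CPM per kb with anti-IL-1R1, was below Tnfsf13b at 0.662 and Tnfsf10 at 0.388, and with CD40 agonist it was above Ltb (4.17 against 3.55 CPM per kb). In untreated tumours mean Tnfsf13b, at 0.753 CPM per kb, was above Tnfsf10 at 0.662. Tnfsf9 stood apart: its lowest library, at 14.1 CPM per kb, exceeded the highest value of any other member, 9.42 CPM per kb for Ltb. Ltb, Tnf and Tnfsf10 spanned ranges that overlapped widely (0.581 to 9.42, 0.256 to 8.59 and 0.084 to 5.79 CPM per kb), and so did Lta, Fasl, Tnfsf4 and Tnfsf8.

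The 10 ligands together summed to 21.5, 20.8 and 24.0 CPM per kb in the untreated group, 20.5, 17.5 and 16.4 CPM per kb after anti-IL-1R1, 28.4, 33.6 and 20.7 CPM per kb under the CD40 agonist, then 41.1, 30.9 and 49.7 CPM per kb in the combination. The share of Tnfsf9 in this sum was 35.2 to 64.0% in the combination, against 65.4 to 79.9% in untreated and 77.1 to 88.5% in anti-IL-1R1 tumours. CD40 agonist 3, at 84.0%, lay inside the anti-IL-1R1 range, while CD40 agonist 1 and 2 were at 54.2 and 41.8%. The share of Tnf ran from 1.56 to 1.96% with anti-IL-1R1 and from 10.0 to 18.1% in the combination.

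**Figure D4:**
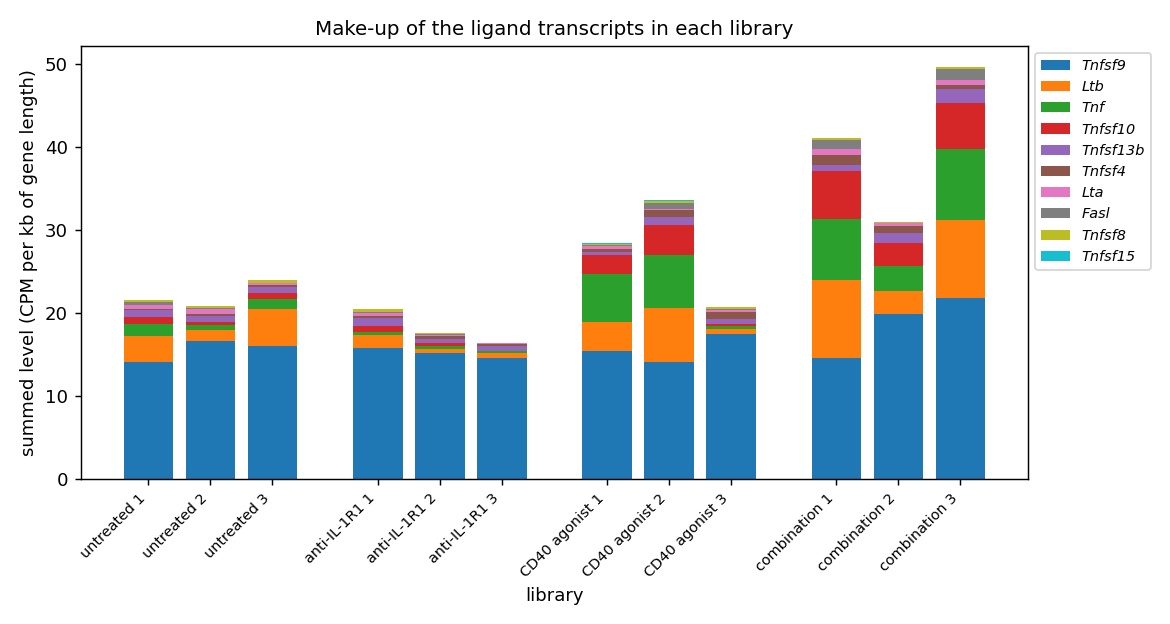
Summed ligand level in CPM per kb of gene length (y axis, from 0) for each of the 12 libraries (x axis), with each bar divided among the 10 ligand genes. The Tnfsf9 segment is 14.1 to 21.8 CPM per kb in every library, and the Tnf segment is 3.09 to 8.59 CPM per kb in the combination against 0.256 to 0.344 CPM per kb with anti-IL-1R1.

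Genes with the most similar profile were sought for the 9 members averaging 0.5 CPM or more, among 12677 genes averaging 1 CPM or more, by Pearson's r of log2 CPM over the 12 libraries. For Tnf they were Oas2 (r = 0.98), Apol6 (0.98) and Oasl2 (0.97), and for Tnfsf10 they were Gbp6 (0.99), Ifi47 (0.99) and Tgtp1 (0.98). Oas2 and Oasl2 belong to an interferon-induced antiviral family, and Gbp6, Ifi47 and Tgtp1 encode interferon-inducible GTPases. For Ltb the closest were Efhd2 (0.97), Snx20 (0.96) and Ifi206 (0.96), the last an interferon-inducible gene. Counts of Oas, Gbp, Ifi200 and Tgtp family genes are uncertain, since near-identical copies can share reads.

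The other members had neighbours of other kinds. Those of Fasl were Enpp4 (0.93), Ppp1r16b (0.91) and H2-Aa (0.89), an MHC class II chain. Those of Tnfsf8 were Foxd2 (0.89), Ccr7 (0.81), the homing receptor of naive T cells and mature dendritic cells, and Sema6c (0.79). Tnfsf13b was closest to Desi1 (0.93), Dab2 (0.86) and Pcid2 (0.85), Tnfsf4 to Spop (0.87), Adcy2 (0.86) and Sulf1 (0.86), Tnfsf9 to Haus7 (0.93), Psmc4 (0.92) and Cnn3 (0.91), and Lta to Ndufb6 (0.82), Fam104a (0.81) and Babam2 (0.79). The highest r among 12677 genes over 12 libraries is large by selection, so these are descriptions without a test.

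No receptor transcript of the ligands passed the test. Of 16 receptor genes, 15 were tested, and 0 were called in any of the 7 comparisons by edgeR, with 1 or 2 at an unadjusted p under 0.05 in each of the 5 comparisons other than anti-IL-1R1 against untreated and the interaction, which held 0. Fas, the death receptor of Fasl, differed most in size among the death receptors. Its levels were 0.924, 1.19 and 0.55 CPM in the untreated group, 0.575, 2.4 and 0.629 CPM with anti-IL-1R1, 5.28, 4.87 and 0.541 CPM under the CD40 agonist and 7.65, 2.83 and 10.8 CPM in the combination. All combination libraries lay above all untreated and anti-IL-1R1 libraries. Of all genes, 10.7% were higher without overlap against untreated tumours and 8.8% against anti-IL-1R1. The log2 difference of Fas was 3.0 to untreated (SE 0.829, adjusted p 0.116) and 2.29 across 6 against 6 libraries (SE 0.572, adjusted p 0.0584). CD40 agonist 3 was low for Fas as it was for Tnf, and DESeq2 gave adjusted p of 0.00305 and 0.000637 for these comparisons.

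The receptors of Tnf and lymphotoxin were abundant. Tnfrsf1a, the death-domain receptor found on most cells, ran from 118 to 183 CPM, Tnfrsf1b, whose expression is centred on immune and endothelial cells, from 51.9 to 144 CPM, and Ltbr, the receptor of the lymphotoxin complex, from 93.0 to 128 CPM. Tnfrsf14, a further receptor of lymphotoxin alpha, ran from 2.85 to 17.8 CPM. Tnfrsf10b, the death receptor of Tnfsf10 in mice, ran from 25.0 to 37.2 CPM. The mouse decoy receptors Tnfrsf22 and Tnfrsf23 ran from 52.2 to 89.2 CPM and from 191 to 362 CPM, and Tnfrsf11b, the soluble decoy osteoprotegerin, from 2.8 to 8.02 CPM. Each group overlapped the untreated libraries for each of these 8 receptors.

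Among receptors of the costimulatory ligands, Tnfrsf9, the partner of Tnfsf9, was at 45.3, 33.2 and 35.1 CPM in the untreated group, 31.4, 27.1 and 23.2 CPM with anti-IL-1R1, 41.9, 43.7 and 33.2 CPM under the CD40 agonist and 25.4, 23.7 and 40.0 CPM in the combination. The anti-IL-1R1 libraries lay below all untreated ones (log2 -0.48, SE 0.221, p 0.0501 before and 1.0 after adjustment), where 4.99% of all genes were lower without overlap. Tnfrsf25, the receptor of Tnfsf15, ran from 1.1 to 4.66 CPM and was higher in every combination library than in every CD40 agonist library (log2 0.99, SE 0.442, adjusted p 0.742). The same held for 3.54% of all genes. Tnfrsf4 ran from 0.987 to 3.49 CPM and Tnfrsf8 from 0.0 to 0.642 CPM. The receptors of Tnfsf13b on B cells were scarce, with Tnfrsf13b at 1.33 to 6.24 CPM and Tnfrsf13c at 0.0 to 1.82 CPM.

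**Figure D5:**
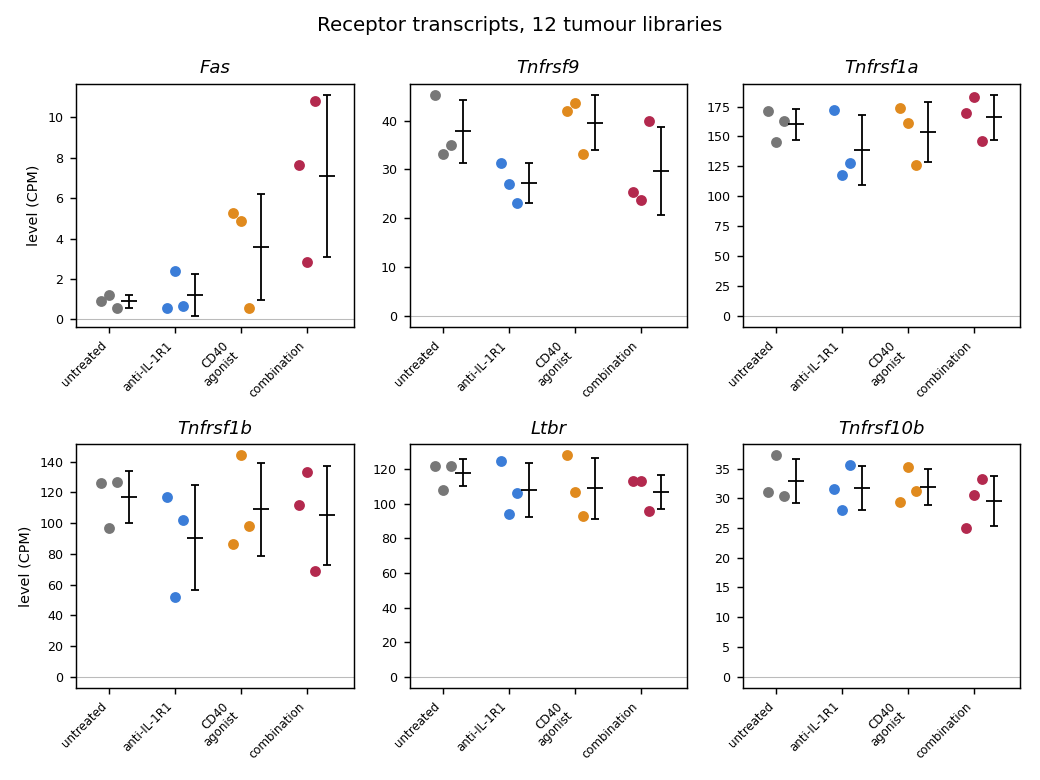
Levels in CPM of 6 receptor genes (y axis, its own range in each panel) in the 12 libraries, coloured by group, with the bar and whiskers giving mean ± SD of 3 libraries. Fas reaches 2.83 to 10.8 CPM in the combination against 0.55 to 1.19 CPM in the untreated group, while the other 5 receptors overlap between these groups.

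Of the other ligand genes of the superfamily, 6 of 8 were tested and 0 were called in any comparison by edgeR. Tnfsf11, the osteoclast factor whose decoy is Tnfrsf11b, had the lowest p among them in 4 of the 7 comparisons. It was at 2.89, 1.67 and 3.27 CPM in the untreated group, 2.35, 2.26 and 3.21 CPM with anti-IL-1R1, 5.13, 2.75 and 2.8 CPM under the CD40 agonist and 4.78, 5.12 and 7.01 CPM in the combination (log2 1.11 against untreated, SE 0.381, adjusted p 0.187). The level of Tnfsf13, a relative of Tnfsf13b that supports plasma cells, was 0.102, 0.267 and 0.0 CPM in the combination, below 0.4 to 1.01 CPM with CD40 agonist (log2 -2.4, SE 1.06, adjusted p 0.742). Of all genes, 5.02% were lower without overlap in that comparison. For Tnfsf12, Tnfsf14, Tnfsf18 and Eda the groups overlapped in all 6 comparisons between groups.

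Downstream of the receptors, 3 of 17 adaptors and regulators were called, all higher, in the combination against anti-IL-1R1, and the same 3 were called across 6 against 6 libraries. They were Traf1, an adaptor, Birc3, a ubiquitin ligase of the receptor complexes, and Tnfaip3, a deubiquitinase that restrains NF-kappaB. Of all genes tested, 2.44% and 2.19% were called in these comparisons, 1.89% and 1.8% as higher. This list and the NF-kappaB list below were made with earlier results of these data known. Their counts are thus no independent evidence of a direction. Tnfaip3 was at 24.6, 21.3 and 25.9 CPM with anti-IL-1R1 and 60.2, 39.0 and 100 CPM in the combination (log2 1.47, SE 0.292, adjusted p 0.0256). Traf1 had a log2 difference of 1.93 (adjusted p 0.0339) and Birc3 of 1.46 (adjusted p 0.0357). For Tnfaip3 and Birc3 the 6 libraries with CD40 agonist all lay above the 6 without, CD40 agonist 3 included. The same held for 0.391% of all genes tested.

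Of 19 tested NF-kappaB subunits and inducible targets, 6 were called higher and 0 lower in the combination against anti-IL-1R1: Sod2 (log2 1.31), Nfkbie (1.33), Nfkbia (1.24), Ccl2 (3.45), Bcl2a1b (2.21) and Ccl5 (3.16), with adjusted p from 0.0253 to 0.048. Nfkbia and Nfkbie encode inhibitors that NF-kappaB induces against itself, Ccl2 and Ccl5 are chemokines of monocytes and T cells, Bcl2a1b is a survival gene with near-identical copies, so its reads are uncertain, and Sod2 is a mitochondrial antioxidant enzyme. The 5 subunit genes Nfkb1, Nfkb2, Rela, Relb and Rel were not called. Across 6 against 6 libraries 5 of the 19 were called higher, the same genes without Ccl5 (adjusted p 0.0539). Of all genes tested, 1.89% were called higher in the combination against anti-IL-1R1 and 1.8% across 6 against 6 libraries.

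Of 10 interferon-inducible genes, a list made with the profiles of Tnf and Tnfsf10 already known and so no independent evidence of its direction, 9 were called higher in the combination against anti-IL-1R1 and 8 across 6 against 6 libraries. Cxcl10, a chemokine of activated T cells, was at 11.6, 10.2 and 5.82 CPM with anti-IL-1R1 and 230, 132 and 561 CPM in the combination (log2 5.06, SE 0.907, adjusted p 0.0308). Stat2 had a log2 difference of 2.39 (adjusted p 0.0303), Isg15 one of 3.52 (0.031), Irf7 of 3.39 (0.0314) and Ifit3 of 4.36 (0.035). Among all genes tested, 1.89% were called higher in the combination against anti-IL-1R1 and 1.8% across 6 against 6 libraries. For anti-IL-1R1 against untreated tumours 0 of the 10 fold changes were above 0 (49.9% of all genes), with a median log2 of -1.01 and 0 called.

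These list calls also depended on single libraries. Without any 1 of the anti-IL-1R1 libraries or without combination 3, 0 adaptors, 0 NF-kappaB genes and 0 interferon-inducible genes were called against anti-IL-1R1. Across 6 against 6 libraries the 3 counts were 0 without any untreated library, any anti-IL-1R1 library, CD40 agonist 1, CD40 agonist 2 or both muscle-rich libraries, and 1, 1 and 0 without combination 3. With no filter on low counts, 2 of the 10 interferon-inducible genes were called in each of these comparisons.

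Summed markers of immune cells are set beside the ligands here. The 9 T cell markers summed to 11.6 to 27.0 CPM in the untreated group, 4.5 to 11.2 CPM with anti-IL-1R1, 6.56 to 31.9 CPM with CD40 agonist and 18.8 to 85.8 CPM in the combination, and the 5 NK cell markers to 1.95 to 5.79, 3.03 to 6.13, 2.61 to 13.1 and 6.24 to 21.7 CPM. Fold changes were above 0 for 9 of 9 T cell and 5 of 5 NK cell markers in the combination against anti-IL-1R1, with 0 called. Of all genes tested, 48.1% had fold changes above 0 in that comparison and 2.44% were called. The 7 macrophage and monocyte markers summed to 329 to 443, 288 to 359, 384 to 587 and 538 to 567 CPM. In that comparison 5 of the 7 had fold changes above 0, and C1qa was called higher. The 5 neutrophil markers summed to 3.59 to 7.79, 4.92 to 5.38, 4.89 to 22.1 and 7.17 to 19.0 CPM. Of the neutrophil markers, S100a9 was called higher across 6 against 6 libraries (log2 2.17, adjusted p 0.0337).

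The 5 B cell markers ranged widely inside the groups, from 0.65 to 30.4 CPM in untreated tumours and from 2.61 to 22.6 CPM in the combination. The 6 dendritic cell markers summed to 12.5 to 13.3 CPM in the untreated group, 4.77 to 9.02 CPM with anti-IL-1R1, 7.35 to 18.4 CPM with CD40 agonist and 8.19 to 16.4 CPM in the combination. Xcr1 and Cd209a were at 0 in all combination libraries. For the combination, fold changes were above 0 for 4 of the 6 against anti-IL-1R1 and for 3 against untreated tumours, with 0 called. The 5 epithelial markers were lower, at 2010 to 2740 CPM in the combination against 3190 to 4160 CPM with anti-IL-1R1, with Epcam and Krt19 called lower and 0 of 5 fold changes above 0. The 5 fibroblast markers summed to 2720 to 10400 CPM in the combination and 3940 to 8690 CPM with anti-IL-1R1. Fold changes were above 0 for 2 of the 5 in that comparison (median log2 -0.12) and for 2 across 6 against 6 libraries (-0.04). Of these markers Pdgfra alone was called, as higher, in the first (log2 0.74, adjusted p 0.0451) and in the second (log2 0.64, adjusted p 0.0281). Which cells the ligand transcripts came from, and the part of these markers in the ligand differences, was not tested.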

How the data were processed

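Bulk RNA of 12 tumours was given as 3 gene tables deposited by the authors, each comparing 2 groups. Per the file headers, the tables hold read counts per gene and library, with gene length and coordinates. They also hold the authors' log2 fold changes and p-values. The submitters' processing notes name the build mm39 and the tool DESeq2. The aligner, the counting tool, its strand setting and the annotation release are not stated in the labels or headers used here. The tables' 42 other value columns, FPKM among them, were not used.

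Tables were joined by gene ID, leaving 25619 genes in all 3 and dropping 5487 found in fewer. The 6 libraries present in more than 1 table had 0 count mismatches. Counts of all 12 libraries were fitted together in edgeR 4.0.16 (R 4.3.3, TMM scaling, filterByExpr, robust quasi-likelihood, no block), with Benjamini-Hochberg adjustment over 19436 genes and calls at an adjusted p under 0.05. A 3-read floor limits levels of 0. The fit was tested on simulated data. Alternatives were DESeq2 1.42.0, DESeq2 size factors, no filter, 2 groups alone, a replicate block, each library left out, and both muscle-rich libraries left out.

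The members and the gene lists were chosen with earlier results of these data known. Named with values were all 10 members, their cognate receptors, up to 6 called genes a list and comparison by lowest p, or else up to 2, and the 3 genes most like each member in profile. Receptors, adaptors and marker genes beyond these were counted. Whether equal replicate numbers pair libraries was checked from their deviations from group means. For untreated and anti-IL-1R1 tumours r was 0.23, 0.19 and 0.22 for the 3 pairs of numbers, each over 0.1, so this comparison was also fitted as paired, an alternative chosen after seeing the data. The other groups did not meet that rule. One gene that this naming rule selects is counted in its list but not reported here.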

Additional observations from a re-analysis of the deposited data

Results flagged for a closer look

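For Lta the effect of each antibody differed in sign with the other antibody present. Anti-IL-1R1 went with a log2 difference of -1.34 in Lta on its own and of 0.99 on top of CD40 agonist, and CD40 agonist with -0.78 on its own and 1.55 on top of anti-IL-1R1. Both descriptions give the same interaction of 2.33 on the log2 scale (SE 1.22, p 0.0784 before and 1.0 after adjustment over all genes in edgeR), so the difference itself did not pass the test. Lta had 253 reads over the 12 libraries. Its differences between groups had standard errors of 0.854 to 0.876, and none of them passed. The signs changed in the same way for Tnfsf13b, at -0.18 and 0.89 for anti-IL-1R1 and -0.24 and 0.84 for CD40 agonist. The Tnfsf13b interaction was 1.07 (SE 0.559, p 0.0763 before adjustment in edgeR). The anti-IL-1R1 difference also changed sign for Tnf, Ltb, Tnfsf10, Fasl and Tnfsf9.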

How the results depend on the processing

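Most fold changes of the ligands kept their direction and side of the threshold: under the alternatives 884 values did, 13 passed only under the alternative, 16 no longer passed, and 27 changed sign, none of them past the test. The 16 values that no longer passed all belonged to Tnf, the only member with calls to lose. DESeq2 called more genes, 8 for CD40 agonist against untreated tumours, 101 for the combination against CD40 agonist, 1031 against untreated (3 ligands) and 1297 against anti-IL-1R1 (3 ligands), 1110 for CD40 agonist given or not (4 ligands) and 21 for the interaction. Without the low-count filter 72 genes were called for the combination against untreated. With 2 groups only, 0 genes were called against CD40 agonist, 128 against untreated (1 ligand), and 328 against anti-IL-1R1 (2 ligands). Without the 2 muscle-rich libraries the counts were 0 against CD40 agonist, 139 against untreated, and 94 with 0 ligands for CD40 agonist given or not. The cause was not tested.

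The replicate block over all 12 libraries gave 0 genes and 0 ligands in each comparison, with Tnf at 4.39 (adjusted p 0.0718) against anti-IL-1R1 and at 3.11 (adjusted p 0.0763) for CD40 agonist given or not. Of 18 same-numbered pairs, 6 had r over 0.1 and 5 correlated best with their own number. The replicate block with 2 groups only, for anti-IL-1R1 against untreated tumours, called 27 genes and gave Tnfsf15 0.0445.

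Leaving out 1 library gave 0 to 7 genes for CD40 agonist against untreated, 0 to 5 for the combination against CD40 agonist, 0 to 581 against untreated, 0 to 701 (0 to 2 ligands) against anti-IL-1R1 and 0 to 777 (0 to 3 ligands) for CD40 agonist given or not. Log2 fold changes that changed sign then ranged, for anti-IL-1R1 against untreated, from -1.19 to 0.879 (Fasl), -0.611 to 0.0554 (Tnfsf13b), -0.108 to 0.00267 (Tnfsf9) and -0.858 to 0.149 (Tnfsf15). For CD40 agonist against untreated they ranged from -0.638 to 2.73 (Fasl), -0.516 to 0.735 (Ltb), -0.496 to 0.01 (Tnfsf13b) and -0.1 to 0.0738 (Tnfsf9). For the combination they ranged from -0.00304 to 0.568 (Tnfsf4, against CD40 agonist), -0.12 to 0.488 (Lta, against untreated) and -0.405 to 1.19 (Tnfsf8, against anti-IL-1R1). Tnfsf8 ranged from -0.404 to 0.381 for CD40 agonist given or not, and in the interaction Tnfsf4 ranged from -0.661 to 0.0638 and Tnfsf8 from -0.00244 to 1.61. Without the 2 muscle-rich libraries Fasl was at -0.641 and Ltb at -0.517 for CD40 agonist against untreated, Lta at -0.108 for the combination against untreated, and Tnfsf8 at -0.128 against anti-IL-1R1. Tnfsf9 was at -0.00378 with DESeq2 size factors and -0.00315 in DESeq2 for CD40 agonist against untreated. Depth limits Tnfsf15, Lta, Fasl, Tnfsf8 and Tnfsf4, with 96 to 434 reads each over 12 libraries.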
